A study of Mus musculus with 4 samples.

Results

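The 2′-5′ oligoadenylate synthetases are interferon-induced enzymes that bind double-stranded RNA and then join ATP into short 2′-5′ linked oligoadenylates, known as 2-5A. These oligoadenylates are second messengers of the antiviral response, which restrains virus growth in infected cells. In mice the family is expanded: a cluster of Oas1 genes lies beside Oas2 and Oas3, and the related Oasl1 and Oasl2, whose proteins end in ubiquitin-like domains, lie elsewhere on the same chromosome. The genes described here were the 8 family members Oas1a, Oas1b, Oas1c, Oas1g, Oas2, Oas3, Oasl1 and Oasl2, chosen by GENCODE symbol from 22520 genes in the deposited tables. Genes known to remove 2-5A or to limit its action were taken as a separate list.

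RNA was sequenced from bone marrow cells left after magnetic removal of cells with mature lineage markers, from 2 wild type C57BL/6 mice and 2 C57BL/6 mice with the genotype Cyba -/- (labelled Cyba-KO). Each mouse gave 1 library, and the labels give no treatment, age or sex. The product of Cyba is p22phox, a membrane protein required for superoxide production by several NADPH oxidases. The title of the study names more stem cells and a myeloid bias at the cost of B cells, and the comparison of genotypes asks here how the synthetase family stood in the same marrow fraction. Summed over the 22070 genes whose deposited numbers could be settled, the libraries held between 22384369 and 23648737 estimated counts. Cyba itself stood at 1347 and 875 reads in wild type replicates 1 and 2, against 28 and 32 in the knockout libraries, which is the order the labels give. Kit, the receptor of stem cell factor and a progenitor marker, was high throughout, at 267 and 301 CPM in the wild type and 222 and 290 CPM in the knockout (CPM being reads scaled to a common library size). Haemoglobin and granule genes of mature cells were still present: Hba-a1 lay between 143 and 610 CPM, and the neutrophil granule gene Camp between 23.6 and 240 CPM. In bulk RNA of this kind, a change in the number of cells that express a gene and a change in the RNA of that gene per cell cannot be told apart.

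All 8 members lie on chromosome 5 of GRCm38 in a pair of clusters. Oasl2 (chr5:114896936-114912234, plus strand) and Oasl1 (chr5:114923240-114937915, plus strand) form the first. The second holds Oas2 (chr5:120730333-120749853), Oas3 (chr5:120753098-120777661), Oas1c (chr5:120800194-120812514), Oas1g (chr5:120876142-120887613) and Oas1a (chr5:120896256-120907521), all on the minus strand, and Oas1b (chr5:120812635-120824163) on the plus strand. GENCODE lists Oas1b as a polymorphic pseudogene and the other 7 as protein coding. C57BL/6 mice are known to carry a truncating Oas1b allele, the allele linked to their susceptibility to flaviviruses.

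Interferon-regulated genes are often bound at the interferon-stimulated response element, a repeat of the letters GAAA with 2 bases in between. The windows from 250 bases before to 50 bases after each annotated start, taken from RefSeq (GRCm38.p6), covered 6 of the 8 members; Oas2 and Oas1b were not among them. The word searched was GAAANNGAAA, or TTTCNNTTTC for its other strand, with overlaps counted. It was present in 4 of the 6 windows, those of Oas1a, Oas1g, Oas3 and Oas1c, and absent from those of Oasl1 and Oasl2. Of all 32851 windows in the RefSeq table, 1131 held it, or 3.44%. The 4 windows with the word are shown 5′ to 3′ on the strand of the gene because their matching and differing letters are the base of this comparison; capitals mark the word. They are chr5:120907476-120907775 for Oas1a, chr5:120887564-120887863 for Oas1g, chr5:120777610-120777909 for Oas3 and chr5:120812465-120812764 for Oas1c, all minus strand.
Oas1a: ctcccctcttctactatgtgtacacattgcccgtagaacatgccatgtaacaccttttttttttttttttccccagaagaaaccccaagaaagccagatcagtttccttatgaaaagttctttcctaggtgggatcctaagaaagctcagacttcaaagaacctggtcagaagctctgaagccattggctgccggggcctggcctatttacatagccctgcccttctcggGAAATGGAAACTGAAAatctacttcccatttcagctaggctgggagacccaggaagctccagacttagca
Oas1g: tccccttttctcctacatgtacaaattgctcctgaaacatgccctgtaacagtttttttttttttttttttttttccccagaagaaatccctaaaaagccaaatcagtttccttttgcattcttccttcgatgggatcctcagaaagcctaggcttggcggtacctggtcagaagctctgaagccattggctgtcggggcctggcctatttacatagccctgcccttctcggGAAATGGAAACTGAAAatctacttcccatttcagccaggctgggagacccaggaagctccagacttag
Oas3: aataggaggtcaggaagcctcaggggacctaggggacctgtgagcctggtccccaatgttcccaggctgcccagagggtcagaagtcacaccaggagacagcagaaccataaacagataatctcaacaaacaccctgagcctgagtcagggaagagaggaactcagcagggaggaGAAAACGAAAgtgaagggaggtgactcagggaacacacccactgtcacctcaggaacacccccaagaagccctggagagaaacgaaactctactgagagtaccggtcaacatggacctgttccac
Oas1c: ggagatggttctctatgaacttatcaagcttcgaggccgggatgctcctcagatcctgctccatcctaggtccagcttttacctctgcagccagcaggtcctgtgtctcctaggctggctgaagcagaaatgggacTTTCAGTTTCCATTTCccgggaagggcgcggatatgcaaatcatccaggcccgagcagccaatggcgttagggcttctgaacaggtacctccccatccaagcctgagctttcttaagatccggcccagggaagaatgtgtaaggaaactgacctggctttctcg

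In the Oas1a window overlapping words began 20 and 14 bases before the start, and in the Oas1g window 18 and 12 bases before it. Together they form the run GAAATGGAAACTGAAA of 16 bases (chr5:120907530-120907545 at Oas1a and chr5:120887616-120887631 at Oas1g). It lies inside a stretch of 73 bases that the Oas1a and Oas1g windows share without a mismatch. The Oas1c window held the same run on the other strand, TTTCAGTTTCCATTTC (chr5:120812613-120812628), with words 114 and 108 bases before the Oas1c start. Oas1b and Oas1c are transcribed away from each other, with 121 bases between their annotated starts, so the run at Oas1c also lies 7 to 22 bases before the Oas1b start. Only 7 of the 32851 windows, or 0.021%, held this run on either strand, and they belonged to Oas1a, Oas1g, Oas1c, Apol9a and Apol9b. The Oas3 word, GAAAACGAAA, stood alone 75 bases before the start. A match of letters is a description of the window and does not show binding.

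**Figure D1:**
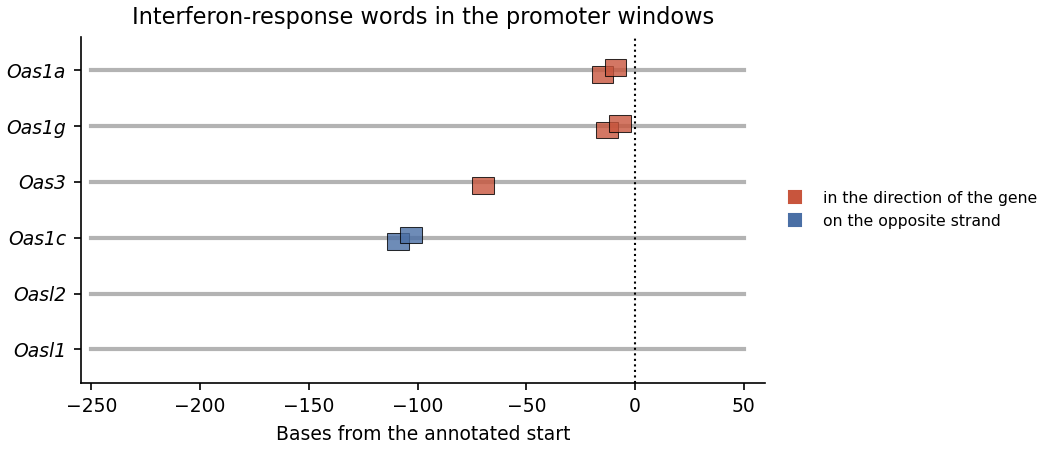
Position of the paired GAAA word in the promoter windows of 6 family members, in bases from the annotated start (dotted line); red boxes lie in the direction of the gene and blue boxes on the opposite strand. Oas1a and Oas1g carry overlapping words within 20 bases of the start, Oas3 a single word 75 bases before it, Oas1c overlapping words on the other strand, and Oasl2 and Oasl1 none.

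Both knockout libraries stood above both wild type libraries for 5 members, Oas2, Oas1g, Oasl2, Oas1a and Oas3. Their group means were between 1.70 and 4.53 times the wild type means. The other 2 members that could be tested, Oasl1 and Oas1c, overlapped between genotypes. Over all 13799 genes tested, the knockout pair lay above the wild type pair for 17.6%, against 5 of the 7 tested members. No member passed the edgeR quasi-likelihood F test after Benjamini-Hochberg adjustment over all genes, nor did any other gene (0 of 13799, or 0%), the lowest adjusted p being 0.306. At an unadjusted p under 0.05 the same test took 4 of the 7 members, all higher in the knockout, and 3.28% of all genes, 2.81% being higher. DESeq2, run as an alternative, called 3 of the 7 members (Oas1g, Oas2 and Oasl2), all higher, and 0.222% of the 13939 genes it tested, 0.208% being higher. Limma-voom called 0 members and 0% of genes, and at an unadjusted p under 0.05 it took 5 of the 7 members and 3.38% of genes. With 2 libraries a group, these p-values rest on the spread between single mice, which each method shares in part over all genes.

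**Figure D2:**
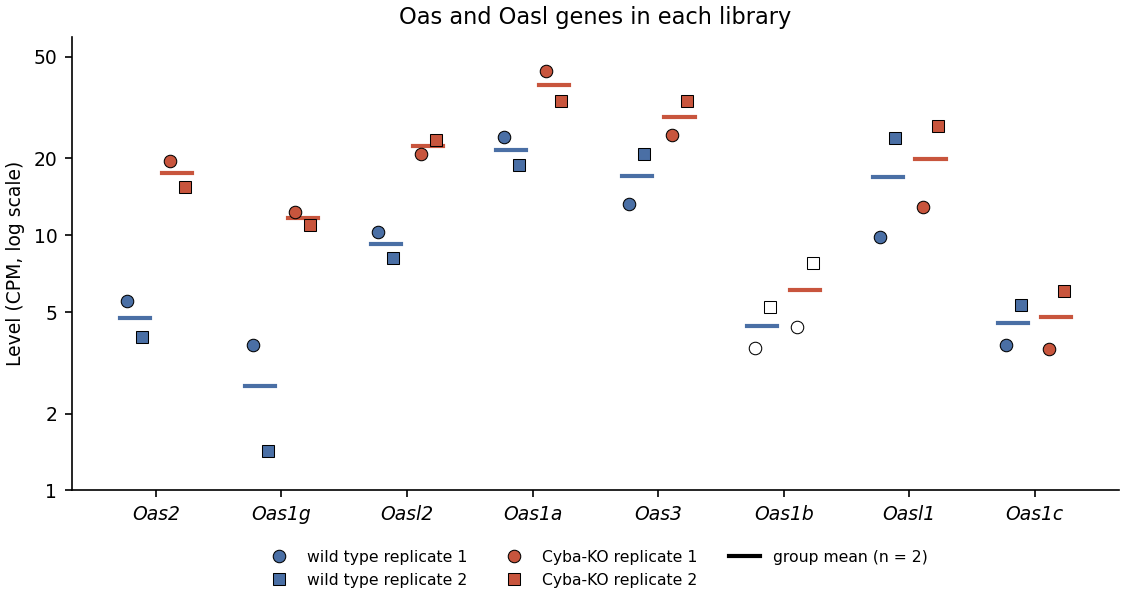
Level of each family member in each library in CPM (log axis), with wild type in blue and Cyba-KO in red, circles for replicate 1, squares for replicate 2 and bars for group means; the open symbols of Oas1b are most probable readings of damaged values. Both red points lie above both blue points for Oas2, Oas1g, Oasl2, Oas1a and Oas3, whereas Oas1b, Oasl1 and Oas1c overlap. For Oas1b, Oasl1 and Oas1c, and also for Oas3, the replicate 2 libraries lie above the replicate 1 libraries in both genotypes.

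Oas2, an enzyme with tandem synthetase units, had the smallest p of the family. It stood at 5.53 and 3.97 CPM in the wild type libraries (131 and 89 reads) and at 19.5 and 15.5 CPM in the knockout libraries (438 and 362 reads). The lower knockout library was thus well above the higher wild type library. The log2 fold change was 1.88 ± 0.27 (SE, n = 2 a group; 3.69-fold), with an unadjusted p of 0.00141 and an adjusted p of 0.841 in the edgeR test. That p ranked 5 among the 13799 genes, and DESeq2 gave an adjusted p of 5.81e-05. None of its count values was damaged, and no word of 31 bases in its annotated transcripts occurred in the transcripts of another gene.

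Oas3, the largest synthetase and a sensor of long double-stranded RNA, differed less. Its levels were 13.3 and 20.9 CPM in the wild type and 24.7 and 33.5 CPM in the knockout. The groups did not overlap, but the gap between wild type replicate 2 and knockout replicate 1 was smaller than the distance between the replicates of either genotype. The log2 fold change was 0.77 ± 0.30, with an unadjusted p of 0.0541 and an adjusted p of 0.841 (edgeR).

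Oas1a and Oas1g both encode active synthetases. Oas1a stood at 24.3 and 18.9 CPM in the wild type and at 44.1 and 33.7 CPM in the knockout, without overlap. Its log2 fold change was 0.85 ± 0.22 (1.80-fold), with an unadjusted p of 0.0139 and an adjusted p of 0.841 (edgeR), and an adjusted p of 0.384 by DESeq2. For Oas1g the wild type libraries themselves were uneven, at 3.71 and 1.43 CPM (88 and 32 reads), against 12.3 and 10.96 CPM in the knockout (277 and 256 reads). Its log2 fold change of 2.17 ± 0.50 (4.53-fold) was the greatest of the family, with an unadjusted p of 0.00935 in the edgeR test and an adjusted p of 0.0134 by DESeq2. The size depended on which wild type library was kept: it was 3.03 without wild type replicate 1 and 1.65 without wild type replicate 2.

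Oas1a and Oas1g are close copies. Of the distinct 31-base words in the annotated Oas1a transcripts, 31.2% occurred in no other gene, and 68.7% were also in Oas1g; for Oas1g 44.9% were its own. The authors' estimated counts therefore divide shared reads between them, and the split is less certain than the sum. Added together, they stood at 28.0 and 20.3 CPM in the wild type and 56.5 and 44.6 CPM in the knockout. This is a ratio of 2.09, and the sums of the genotypes did not overlap.

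Oas1c stood at 3.71 and 5.31 CPM in the wild type and at 3.57 and 6.04 CPM in the knockout. The 2 knockout values enclosed both wild type values, and the log2 fold change was 0.09 ± 0.38, with an adjusted p of 0.955 (edgeR). Its sign turned without wild type replicate 1 (-0.14) and without knockout replicate 2 (-0.34). Oas1b could not be tested because the expected error of its total in knockout replicate 2 was 8.46%, above the limit of 5% for reading damaged numbers. Its most probable readings were 86 and 117 reads in the wild type and 98 and 182 reads in the knockout, which overlap. The further Oas1 genes of the cluster were barely detected: Oas1d and Oas1e had at most 1 read in any library and Oas1h at most 3.

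Of the synthetase-like genes, Oasl2, which encodes an active synthetase in mice, stood at 10.3 and 8.17 CPM in the wild type and at 20.9 and 23.7 CPM in the knockout. Every knockout value was over 2 times every wild type value. The log2 fold change was 1.27 ± 0.20 (2.42-fold), with an unadjusted p of 0.00219 that ranked 12 of 13799 in the edgeR test, an adjusted p of 0.841, and an adjusted p of 0.00631 by DESeq2. Oasl1, which lacks synthetase activity and is known in mice to restrain translation of Irf7, followed another pattern. It stood at 9.83 and 24.1 CPM in the wild type and at 12.9 and 26.8 CPM in the knockout. Both replicate 2 libraries were about as far above their replicate 1 counterparts, and the genotypes overlapped. The log2 fold change was 0.23 ± 0.57, with an adjusted p of 0.918 (edgeR), and its sign turned without wild type replicate 1 (-0.27) and without knockout replicate 2 (-0.39).

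**Figure D3:**
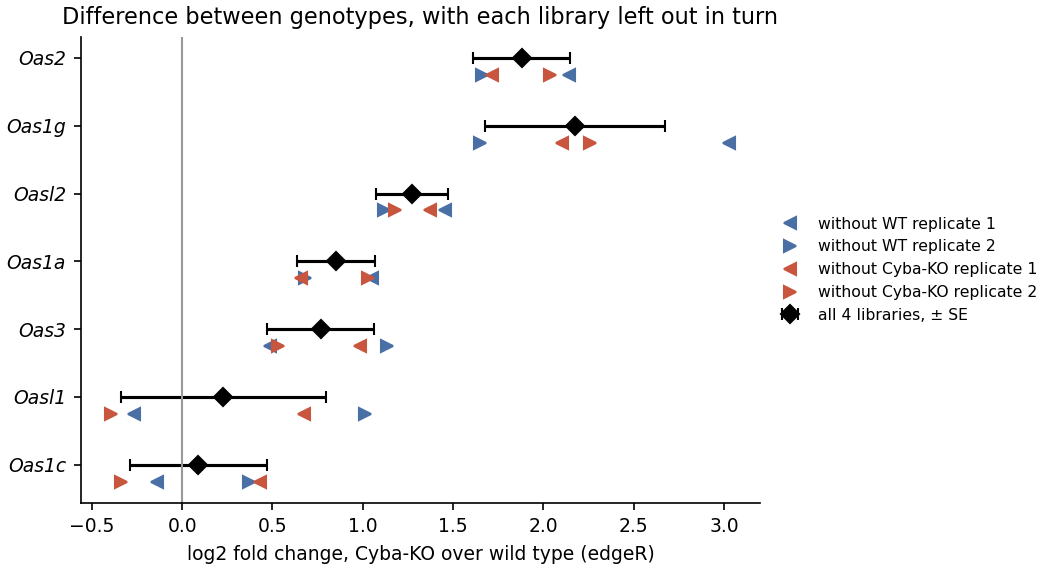
Log2 fold change of each tested member, Cyba-KO over wild type, from all 4 libraries with its SE (black) and with each library left out in turn (coloured triangles, blue for a wild type and red for a knockout library). Oas2, Oas1g, Oasl2, Oas1a and Oas3 stay above 0 in each case, between 0.49 for Oas3 and 3.03 for Oas1g, whereas Oasl1 and Oas1c lie on both sides of 0.

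Levels of different genes can be set side by side only per length, for which the deposited TPM values were used, each a gene's share of the transcripts in its library after its reads are divided by its length. In the wild type libraries Oas1a had 12.3 and 9.88 TPM and Oasl1 5.96 and 14.8 TPM, and these overlapped. The lower Oasl1 value also lay within the range of Oasl2. Oasl2 (6.35 and 4.85 TPM) and Oas3 (3.35 and 5.58 TPM) also overlapped and lay below Oas1a. Oas1g (3.4 and 1.26 TPM) and Oas2 (1.28 and 1 TPM) were at the foot of the order, although the higher Oas1g value lay within the range of Oas3 and the lower one within that of Oas2. In the knockout libraries Oas1a led with 20.5 and 18.2 TPM, Oasl2 had 10.3 and 13.6 TPM, and Oas1g, at 9.33 and 9.95 TPM, lay above both values of Oas3 (4.91 and 8.45 TPM). Oasl1, at 6.81 and 16.3 TPM, spanned the range of Oasl2 and Oas1g. Oas2, at 4.58 and 4.14 TPM, was the lowest of these 6 genes in the knockout. The places of Oas1a and Oas1g rest on how their shared reads were divided, which is less certain than their sum. Oas1c is left out of this order because its TPM readings were not settled, and Oas1b because its counts were not.

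Of the genes that limit the pathway, Abce1, a ribosome recycling factor, was lower in both knockout libraries, as were 16.1% of all genes tested, at 262 and 286 CPM against 315 and 375 CPM. Its log2 fold change was -0.33 ± 0.14, with an unadjusted p of 0.0756 (edgeR). Pde12 and Akap7, phosphodiesterases that can degrade 2-5A, had log2 fold changes of -0.07 ± 0.12 and -0.22 ± 0.33. None of these 3 genes passed the edgeR test, before or after adjustment, and their median log2 fold change was -0.22, against -0.01 over all genes tested and 0.85 over the 7 tested members.

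Sensors of double-stranded RNA that act beside the synthetases, and their partners, were mixed. Over all genes tested 49.0% had a log2 fold change above 0. Of 10 listed sensors and partners, all tested, 7 were higher and 3 lower in the knockout, with a median log2 fold change of 0.18; 0 passed the adjusted edgeR test and 1 had an unadjusted p under 0.05 and was higher, where the share over all genes was 2.81%. That one was Dhx58 (LGP2), at 17.1 and 20.2 CPM against 25.9 and 29.0 CPM, with a log2 fold change of 0.56 ± 0.16 and an unadjusted p of 0.0233 (edgeR). Ddx58 (RIG-I) had a log2 fold change of 0.66 ± 0.26, and Trim25, the ubiquitin ligase that activates it, of 0.24 ± 0.11; both lay higher in both knockout libraries. Over the list the knockout pair lay above the wild type pair for 5 of 10 genes (17.6% over all genes). It lay below for 2 (16.1% over all genes), Dhx9 and Mavs, named after their values were seen. Their log2 fold changes were -0.27 ± 0.14 and -0.19 ± 0.11. Ifih1 (MDA5), Eif2ak2 (PKR) and Tlr3 overlapped between genotypes.

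Among interferon ligands, 4 of 11 listed genes were in the tables and Ifng alone had enough reads to be tested; it stood at 1.01 and 0.268 CPM in the wild type and at 1.25 and 0.342 CPM in the knockout. Receptors and signalling genes of the interferon pathway were higher in the knockout for 15 of 17 (49.0% over all genes), with a median log2 fold change of 0.34. Of these, 0 passed the adjusted edgeR test, 4 had an unadjusted p under 0.05 and were higher (2.81% over all genes), and 8 had both knockout libraries above both wild type libraries (17.6% over all genes). Irf7, the transcription factor that amplifies type I interferon, stood at 13.7 and 19.9 CPM against 29.2 and 31.8 CPM, a log2 fold change of 0.86 ± 0.23 with an unadjusted p of 0.0155 (edgeR). Usp18, which removes ISG15 and dampens the interferon receptor, had a log2 fold change of 0.84 ± 0.23, and Ifngr2, a chain of the interferon gamma receptor, one of 0.57 ± 0.15.

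Other interferon-induced effectors were also mostly higher in the knockout on average. Of 24 tested, 22 were higher in the knockout (49.0% over all genes), with a median log2 fold change of 0.55, and 18 had both knockout libraries above both wild type libraries (17.6% over all genes). The edgeR test took 0 after adjustment and 13, all higher, at an unadjusted p under 0.05 (2.81% over all genes). DESeq2 called 1 as higher, Ifi27l2a (0.208% over all genes). That gene stood at 4.05 and 3.57 CPM in the wild type and at 14.2 and 9.50 CPM in the knockout, with a log2 fold change of 1.63 ± 0.29. Ifit3b, of the family that binds foreign RNA ends, was near the detection limit, at 0.169 and 0.134 CPM against 0.624 and 0.899 CPM. Ifitm3, which blocks viral entry at membranes, was abundant, at 67.5 and 57.6 CPM against 114 and 94.9 CPM, a log2 fold change of 0.74 ± 0.16. Well-known effectors of this list also overlapped between genotypes, among them Ifit2, Rsad2 and Cmpk2, named after their values were seen, with log2 fold changes of -0.10 ± 0.21, 0.39 ± 0.45 and 0.12 ± 0.23.

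**Figure D4:**
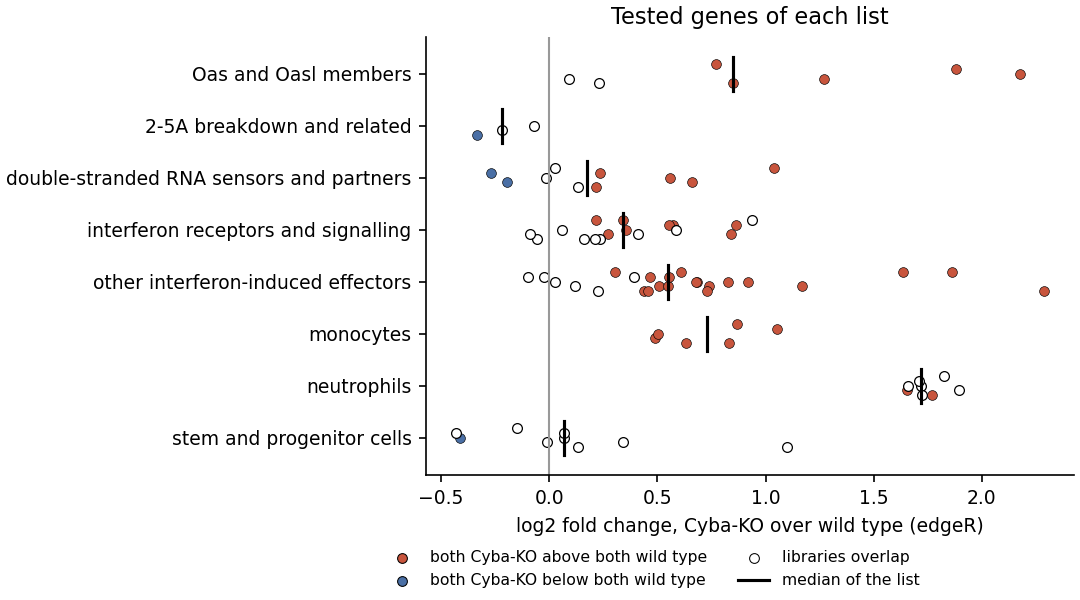
Log2 fold change of every tested gene, Cyba-KO over wild type, grouped by list; red points have both knockout libraries above both wild type libraries, blue points both below, open points overlap, and black bars mark the median of each list. The median is 0.85 for the synthetase family, -0.22 for the 2-5A breakdown and related list, 0.55 for other interferon-induced effectors, 0.73 for monocyte markers and 1.72 for neutrophil markers.

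Markers of cells that a lineage depletion can leave were examined in the same fit. All 6 monocyte markers were higher in both knockout libraries (17.6% over all genes), with a median log2 fold change of 0.73. The list had a summed level of 1862 and 1220 CPM in the wild type against 2759 and 2290 CPM in the knockout. None passed the adjusted edgeR test, although 4 had an unadjusted p under 0.05 and were higher (2.81% over all genes), and DESeq2 called Fn1 (adjusted p 0.0209; 0.208% of all genes were called higher). S100a4 had a log2 fold change of 0.83 ± 0.15, Fn1 of 1.05 ± 0.20 and Ccr2, the receptor that brings monocytes out of the marrow, of 0.63 ± 0.16, and Csf1r was the other of the 4. Neutrophil markers were higher for 8 of 8 genes (49.0% over all genes), with log2 fold changes of at least 1.65 and a median of 1.72. Of the 8, only S100a8 and Camp had both knockout libraries above both wild type libraries (17.6% over all genes). S100a8 alone had an unadjusted p under 0.05 (edgeR; 2.81% over all genes were higher at that p). They summed to 402 and 1186 CPM in the wild type and to 1006 and 4284 CPM in the knockout, so the sums overlapped between genotypes. Of the 2 knockout libraries, replicate 2 had the higher neutrophil sum and replicate 1 the higher monocyte sum. Oasl2, Oas3, Oasl1 and Oas1c were higher in replicate 2, and Oas2, Oas1g and Oas1a in replicate 1. The wild type libraries had the same order for both sums and for these genes, except that Oasl2 was higher in replicate 1. Markers of plasmacytoid dendritic cells, known as strong producers of type I interferon, summed to 156 and 135 CPM in the wild type and to 191 and 171 CPM in the knockout; Siglech, Ccr9 and Tcf4 overlapped between genotypes. The other 3 markers did not (17.6% over all genes had the knockout pair above): Irf7 and Bst2, which the interferon lists also hold, and Klk1. Irf7 stood at 13.7 and 19.9 CPM against 29.2 and 31.8 CPM, and Bst2 at 49.8 and 41.9 CPM against 73.5 and 50.6 CPM. Tcf4 stood at 75.4 and 67.2 CPM against 71.0 and 74.0 CPM. The rise of the sum thus lay mainly in Irf7 and Bst2. Klk1 had no read in wild type replicate 2 and stood at 0.0422 CPM in replicate 1 against 0.758 and 0.942 CPM. All macrophage, B cell and T cell markers, 8, 4 and 5 genes, had log2 fold changes above 0 (49.0% over all genes). The knockout pair lay above the wild type pair for 1, 1 and 0 of them (17.6% over all genes). Erythroid markers were below 0 for 4 of 4, each with overlap, and the stem and progenitor list was split, 5 higher and 4 lower. No gene of these 5 lists had an unadjusted p under 0.05 (edgeR) or an adjusted call by DESeq2. The part of these cell markers in the difference of the synthetase genes was not tested.

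The genes whose centred log2 CPM over the 4 libraries lay nearest to the mean profile of the 7 tested members were Pirb, Apobr, S100a6, Ppp1r3b, Trem2 and Rdh12. Their distances were between 0.143 for Pirb and 0.193 for Rdh12. They were chosen as the smallest among 11071 genes, so their place below the median of 1.13 was fixed by the choice. The order of the genotypes in these genes also follows from it. Pirb, an inhibitory immunoglobulin-like receptor, stood at 25.7 and 28.7 CPM in the wild type and at 51.4 and 64.6 CPM in the knockout. Single members departed from this mean. In wild type replicate 2 the mean was -0.53, whereas Oas1g stood at -1.81 and Oasl1 at 0.51. The genes named are thus near the mean and not near each member. With 4 libraries, nearness of this kind describes these samples only.

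Genes beside the clusters that could be tested had low differences between genotypes, apart from Dtx1. Within 100 kb of a member 29 other genes are annotated, of which 6 were tested. Of these, 1 was higher and 5 were lower in the knockout, with a median log2 fold change of -0.11. The knockout pair lay below the wild type pair for 4 (16.1% over all genes) and above it for 1, Dtx1 (17.6% over all genes). In the edgeR test 0 had an unadjusted p under 0.05. Dtx1, beside Oas2, had a log2 fold change of 0.69 ± 0.39 at under 1 CPM. The uncharacterised gene 2210016L21Rik, 4243 bases from Oasl1, stood at 25.8 and 25.4 CPM in the wild type and at 23.5 and 21.8 CPM in the knockout, and Sppl3, an intramembrane protease, had a log2 fold change of -0.11 ± 0.11.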

How the data were processed

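Gene levels were taken from the tables of estimated counts and of TPM that the authors deposited for each library, each with 22520 Ensembl genes and 4 sequencing lanes per the file headers. Salmon, DESeq2 and the build GRCm38 stand in the submitters' processing notes; their versions, the annotation and strandedness are not given in the sources used here. Many deposited numbers had lost their decimal point (24.8% of count values and 53.2% of TPM values had more than 1 reading), so the TPM columns were treated as a score until repaired. Readings were weighed jointly per gene: lanes of a library shared a rate, TPM was tied to the count through gene length, and libraries were tied by a t distribution (3 df, scale 0.2 in natural log units). A gene was used if no library total had an expected error above the larger of 5% and 1 read. This held for 22070 genes and not for 450, Oas1b among them. Repaired TPM summed to between 987397 and 996865 per lane. Of the 7 members kept, Oas2, Oas1c and Oasl1 had no damaged count value, whereas nearly all count values of Oas1a, Oas1g and Oasl2 needed a choice of reading.

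Lanes were summed and rounded. Genotypes were compared in R 4.3.3 by quasi-likelihood F tests (edgeR 4.0.16, TMM scaling, default expression filter), two-sided, with Benjamini-Hochberg adjustment over 13799 genes at 0.05; SE is the size of the log2 fold change over the root of F. CPM used TMM-scaled library sizes. Alternatives were DESeq2 1.42.0, limma-voom and limma-trend on log2 TPM (limma 3.58.1), other scaling and filtering, the replicate number as a block, each library left out, and a repair with no tie between libraries. Scripts were tested on simulated data. Names and coordinates came from GENCODE vM21, which matched 22384 identifiers; promoter windows came from RefSeq GRCm38.p6.

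The members and lists were chosen with earlier results of these data known. Named genes were the 8 members, the 2-5A breakdown list, up to 3 genes with the smallest p per other list, the 6 genes nearest in profile, Cyba, and up to 3 neighbours within 100 kb. Marker genes named beside them were chosen for what they mark or after their values were seen. A gene that this rule also took is not reported here.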

Additional observations from a re-analysis of the deposited data

How the results depend on the processing

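The count of genes called, 0 in the main edgeR test (452 at an unadjusted p under 0.05), was 31 with DESeq2, 3 without knockout replicate 2, 1 in limma-trend on log2(TPM + 1) and 1 on log2(TPM + 0.1); leaving out 1 library gave between 0 and 3. It was 0 with relative log expression factors, no filter, limma-voom, the untied repair and a repair tolerance of 10%. Members called were 3 with DESeq2 and 0 in the others of these settings. Same-numbered libraries are not paired by the labels. Across genes their deviations from the group means had a correlation of 0.62. With 2 libraries a group, its sign turns if the numbers of 1 genotype are swapped, so it cannot show a pairing. With the replicate number as a block, edgeR called 1290 of 13799 genes (827 higher, 463 lower). These included 5 of the 7 tested members, Oas1a, Oas1g, Oas2, Oas3 and Oasl2. Over all alternatives that gave a value, the log2 fold change ranged from 1.33 to 2.14 for Oas2, 0.97 to 1.46 for Oasl2, 1.65 to 3.03 for Oas1g, 0.66 to 1.05 for Oas1a and 0.48 to 1.13 for Oas3, with no change of sign. Oasl1 turned to -0.27 without wild type replicate 1 and to -0.39 without knockout replicate 2, and Oas1c to -0.14 and -0.34; left-out libraries moved them between -0.39 and 1.01 and between -0.34 and 0.43. The untied repair could settle 4 members, leaving out Oas1a, Oas1g and Oasl2, so their values rest on the tie between libraries. The tolerance of 10%, added after seeing the data, took in Oas1b, with a log2 fold change of 0.46 and an adjusted p of 0.841 (edgeR). The causes of these differences were not tested. Depth limits Oas1g most, with 32 reads in wild type replicate 2.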
